A study of Mus musculus with 2 samples.

Results

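The phagocyte NADPH oxidase genes studied here are 6 genes, Cybb, Cyba, Ncf1, Ncf4, Rac1 and Rac2, chosen by gene symbol from the 23235 rows of the deposited gene table. All 6 had a row. RNA was sequenced from primary mouse acute promyelocytic leukaemia cells, 1 library from the leukaemia called APL#2 and 1 from APL#1. Both leukaemias arose in C57BL/6-Ly5.2 mice whose labels name a PML-RAR fusion, once as mCG-PML-RAR transgenic and once as PML-RAR knock-in, and both are labelled untreated at 10 weeks of age. The letters VEH stand in both titles all the same. APL#2 was passed on with 200000 cells and APL#1 with 2000000 cells into CD45.1+ mice that had not been irradiated, and CD45.2+ cells were taken from the spleen on immunomagnetic columns. The series compares the leukaemias as clones that differ in how many of their cells can start the disease again. With 1 library per leukaemia no difference has a replicate check, no test was run, and leukaemia, recipient, cell dose and library cannot be told apart.

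The oxidase is the enzyme with which phagocytes make superoxide, the oxygen radical of the respiratory burst. Its membrane part, cytochrome b558, is made of gp91phox (encoded by Cybb), which carries electrons from NADPH across the membrane, and p22phox (encoded by Cyba), which holds gp91phox stable and gives the cytosolic subunits a docking site. On activation cytosolic subunits, among them p47phox (Ncf1) and p40phox (Ncf4), move to the membrane together with a Rac GTPase, and the enzyme assembles. The parts are made in turn during granulocyte maturation, and in bone marrow promyelocytes the complete enzyme is not yet abundant. Loss of a subunit causes chronic granulomatous disease, an immune deficiency. RNA levels measure neither the subunit proteins nor superoxide.

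For 3 members, Cybb, Cyba and Ncf1, RefSeq promoters were at hand (build GRCm38.p6, all on the minus strand). They are shown because Cybb and Cyba encode both parts of the cytochrome yet lay at the bottom and the top of the members' levels. Each stretch has 175 bases, 150 before the first transcribed base and 25 from that base on, and lies at chrX:9469300-9469474 for Cybb, chr8:122432916-122433090 for Cyba and chr5:134229601-134229775 for Ncf1. Capitals mark matches, on either strand, to an ETS element as bound by PU.1 (GAGGAA), an ETS-IRF composite element (GGAANNGAA), a CCAAT box (CCAAT) or a GC box (CCCGCC).
Cybb: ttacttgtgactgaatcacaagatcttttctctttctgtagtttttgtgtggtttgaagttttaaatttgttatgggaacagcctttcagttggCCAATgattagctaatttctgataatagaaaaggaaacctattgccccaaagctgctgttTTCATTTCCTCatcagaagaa
Cyba: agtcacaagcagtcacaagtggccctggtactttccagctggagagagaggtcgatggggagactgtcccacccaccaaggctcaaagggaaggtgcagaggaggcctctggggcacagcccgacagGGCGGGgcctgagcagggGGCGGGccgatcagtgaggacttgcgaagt
Ncf1: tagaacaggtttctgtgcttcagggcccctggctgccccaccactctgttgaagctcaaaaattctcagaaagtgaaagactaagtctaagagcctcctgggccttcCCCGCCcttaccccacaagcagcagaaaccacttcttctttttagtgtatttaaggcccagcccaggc
The Cybb stretch held the ETS element and the ETS-IRF element, which overlap on the opposite strand between 4 and 14 bases after the first transcribed base, and a CCAAT box that starts 56 bases before it. The Cyba stretch held 2 GC boxes, starting 23 and 5 bases before the first transcribed base, and the Ncf1 stretch held 1, starting 43 bases before it. Among 32851 promoter stretches of the same length, 17.0% held the ETS element, 4.88% the ETS-IRF element, 26.7% the CCAAT box and 30.2% the GC box. These matches are descriptions of the letters and not of bound factors.

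The unit of level is FPKM, in which fragment numbers are divided by transcript length and by the library's total, so levels can be set side by side between genes. A log2 difference below is log2((FPKM in APL#2 + 1)/(FPKM in APL#1 + 1)), positive where APL#2 is higher, and a ratio is the plain ratio of FPKM. The number of fragments behind a value was estimated from the steps between low FPKM values, which come to 0.0180 FPKM in APL#2 and 0.0194 FPKM in APL#1 for a single fragment and a length of 1 kb, and from GENCODE transcript lengths. Intervals are 95% exact intervals for that number of fragments; they cover counting error only and not the spread between mice or libraries. The 2 libraries had nearly equal sums of FPKM, 35239.9 in APL#2 and 34893.9 in APL#1. A gene is called measured where its mean FPKM over both libraries is at least 1, which holds for 4100 genes and for 4 of the 6 members (Cyba, Ncf4, Rac1 and Rac2). Ncf1 lay just below this level, with a mean of 0.975, and Cybb far below it, with 0.118.

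Both libraries held the markers of the labelled cell type. All 7 promyelocyte markers were above FPKM 1 in APL#2 and in APL#1, with summed levels of 228.1 FPKM in APL#2 against 768.7 in APL#1, most of it Mpo (157.3 FPKM in APL#2, 661.8 in APL#1), the gene of myeloperoxidase. By log2 difference, 3 of the 7 were at least 1.5-fold lower in APL#2 and 1 higher. Ms4a3 (15.9 in APL#2, 7.85 in APL#1) and Ctsg (8.99 in APL#2, 7.89 in APL#1) had the higher level in APL#2. Markers of B cells, T and NK cells, dendritic cells and red cell precursors were all at or below 0.694 FPKM, with no more than 0.742 FPKM in all per list and library; 2 haemoglobin genes of the red cell list had no row. Other lists were not as low. The 7 markers of basophils, mast cells and eosinophils summed to 17.3 FPKM in APL#2 against 51.7 in APL#1, most of it Cpa3 (7.09 in APL#2, 41.3 in APL#1) and, in APL#2, Mcpt8 (8.04 in APL#2, 1.02 in APL#1). The 5 megakaryocyte and platelet markers summed to 3.96 FPKM in APL#2 against 2.37 in APL#1, nearly all of it Itga2b, and Pf4, Ppbp and Gp9 were listed at 0 in both. In bulk RNA, fewer cells of a type and less RNA per cell cannot be told apart.

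The genes of the cytochrome lay at opposite ends. Cyba was the highest member and nearly level between the leukaemias, whereas Cybb was the lowest member in both and rested on about 3 fragments in APL#1. Cyba had 15.5 FPKM in APL#2 (counting interval 14.2 to 16.8) against 14.2 in APL#1 (12.9 to 15.5). The intervals overlap, and the ratio of 1.09 (0.965 to 1.24) has 1 inside its counting interval. By level, 98.9% of all listed genes were lower than Cyba in APL#2 and 98.7% in APL#1.

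Cybb had 0.224 FPKM in APL#2 (0.172 to 0.287) against 0.0115 in APL#1 (0.00238 to 0.0337), a ratio of 19.4. The intervals do not overlap. With the scaling for depth undone, the ratio of raw fragments was 21. The transcript length of 4752 bases alone gave 59.2 fragments in APL#2 and 2.82 in APL#1, and the nearest pair of whole numbers with that ratio, 63 in APL#2 and 3 in APL#1, was used for the intervals. The counting interval of the ratio ran from 6.35 to 96.7. With so few fragments in APL#1, the size of the ratio is poorly fixed. On the log2(FPKM + 1) scale the same values gave a difference of 0.28, because the added 1 outweighs them.

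Cyba RNA outnumbered Cybb RNA 69.2-fold in APL#2 and 1228-fold in APL#1, as ratios of FPKM. Of all listed genes, 62.6% were lower than Cybb in APL#2 and 48.2% in APL#1, many of them at 0. Of 1988 genes with a mean FPKM within 2-fold of that of Cybb, 50 had a ratio of APL#2 to APL#1 at least as high, or 2.52%, and 38 of those 50 were listed at 0 in APL#1. The authors' deposited table gave Cybb a p-value of 0.00321 and a q-value of 0.732, so it did not pass there after correction; 11 genes of the table had a q-value of at most 0.05. The standard error implied by the authors' statistic was 1.45 on the log2 scale, beside a log2 ratio of 4.28.

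**Figure D1:**
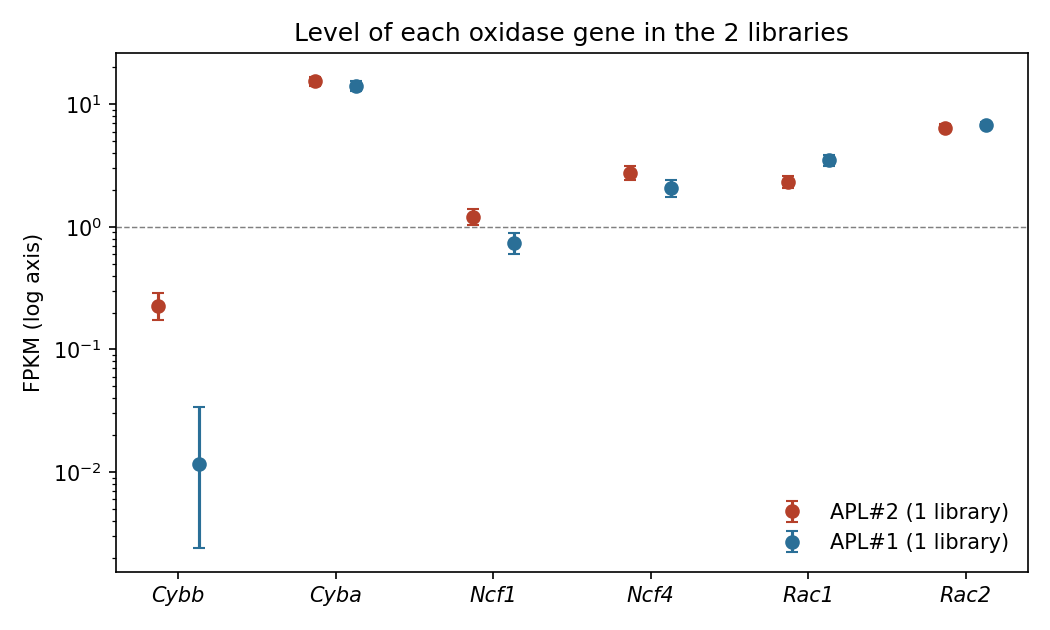
FPKM (log axis) of the 6 oxidase genes in the APL#2 library (red) and the APL#1 library (blue); bars are 95% exact counting intervals on estimated fragments, and the dashed line is FPKM 1. Cybb is the lowest gene in both libraries and the only gene below 0.1 FPKM in APL#1, while Cyba is the highest.

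Other cells of the spleen that carry Cybb are neutrophils, eosinophils, monocytes, macrophages and B cells, so their markers are given beside it. Selection for CD45.2 would remove such cells where they came from the CD45.1+ recipients, and its purity was not measured here. Of 9 markers of mature neutrophils, 3 were above FPKM 1 in APL#2 and 4 in APL#1, with summed levels of 207.1 FPKM in APL#2 against 143.9 in APL#1. Most of that was Camp (152.5 in APL#2, 97.5 in APL#1) and Ngp (41.7 in APL#2, 31.7 in APL#1). Ltf went the other way (0.860 in APL#2, 2.29 in APL#1). Of 6 monocyte markers, 2 were above FPKM 1 in APL#2 and 3 in APL#1, with sums of 137.1 FPKM in APL#2 against 233.6 in APL#1. Most of that was Ly6c2 (130.5 in APL#2, 224.2 in APL#1), and F13a1 was also lower in APL#2 (0.726 in APL#2, 4.75 in APL#1). Ms4a6c went the other way (5.45 in APL#2, 4.34 in APL#1). So did the low genes Ccr2 (0.253 in APL#2, 0.160 in APL#1), Csf1r (0.101 in APL#2, 0.0667 in APL#1) and Fn1 (0.0339 in APL#2, 0.0324 in APL#1). Some genes of both lists are also made by promyelocytes. Of 10 markers of spleen macrophages, 5 had the higher FPKM in APL#2, 4 in APL#1 and Spic was listed at 0 in both. Their summed level was 9.40 FPKM in APL#2 against 5.65 in APL#1, most of it Vcam1 (7.47 in APL#2, 3.94 in APL#1) and Cd68 (1.01 in APL#2, 1.54 in APL#1). Emr1, the gene of the macrophage surface protein F4/80, had 0.537 FPKM in APL#2 against 0.0230 in APL#1, a ratio of 23.3, and the iron exporter gene Slc40a1 had 0.224 in APL#2 against 0.0330 in APL#1, a ratio of 6.78. The complement genes C1qa (0.0552 in APL#2, 0.0597 in APL#1) and C1qb (0.0189 in APL#2, 0.0408 in APL#1) were not higher in APL#2. C1qc was at 0.0761 in APL#2 and listed at 0 in APL#1, and Cd5l was listed at 0 in APL#2 and at 0.00954 in APL#1. A single fragment on 1 kb is worth 0.0180 FPKM in APL#2 and 0.0194 in APL#1. The values of these 4 genes, and those of Emr1 and Slc40a1 in APL#1, thus rest on few fragments, and the direction of these 4 genes is poorly fixed. The eosinophil marker Epx had 0.364 FPKM in APL#2 against 0.127 in APL#1. Prg2, of the same list of basophil, mast cell and eosinophil markers, went the other way (0.382 in APL#2, 1.43 in APL#1). The 6 B cell markers summed to 0.470 FPKM in APL#2 and 0.233 in APL#1. The part of other cells in the Cybb difference was not tested.

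**Figure D2:**
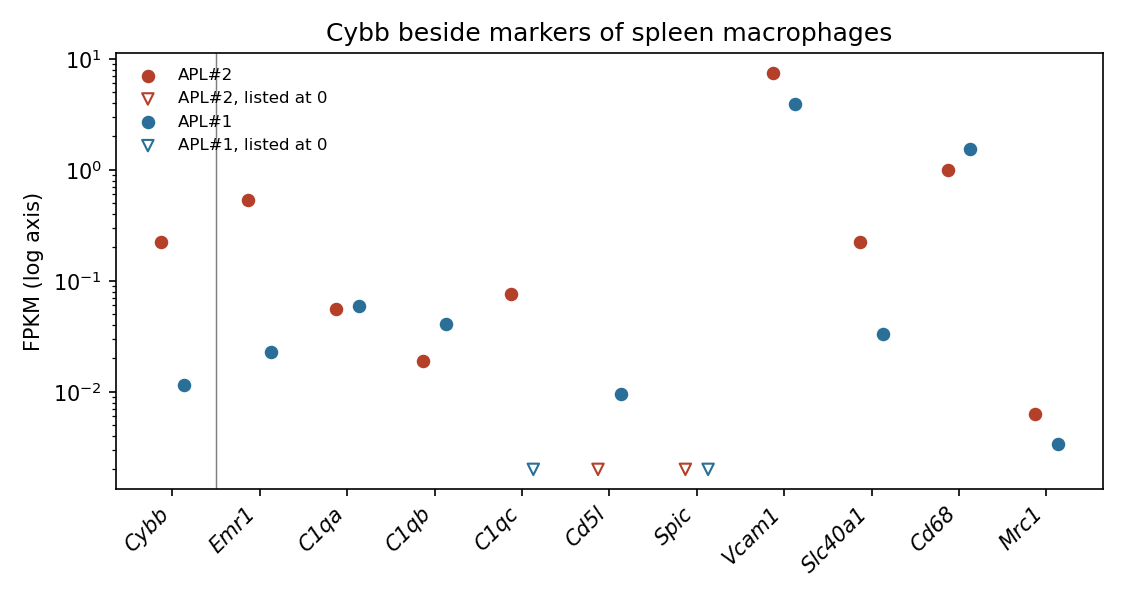
FPKM (log axis) of Cybb, left of the grey line, and of 10 spleen macrophage markers in the APL#2 library (red) and the APL#1 library (blue); open triangles mark values listed at 0. Emr1 and Slc40a1 are higher in APL#2 as Cybb is, whereas C1qa, C1qb, Cd5l and Cd68 are not. The values of C1qa, C1qb and Cd5l rest on few fragments.

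Cybb lies on the X chromosome (mm9, 9012378 to 9046450), and the leukaemias differed in Xist, whose RNA coats and silences the inactive X of females, with 8.20 FPKM in APL#2 against 0.0319 in APL#1. With 1 library per leukaemia, whatever goes with the Xist difference cannot be told apart from leukaemia, recipient, cell dose or library. The 115 measured genes of the X chromosome had a median log2 difference of -0.14, against -0.17 for all measured genes. The nearest measured genes on either side of Cybb, both over 1 Mb away, were lower in APL#2: the RNA-binding protein gene Rbm3 had 6.36 FPKM in APL#2 against 9.98 in APL#1, and Mid1ip1 had 1.69 in APL#2 against 2.08 in APL#1. No listed gene overlaps Cybb or any other member.

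Both cytosolic subunit genes among the members were somewhat higher in APL#2. Ncf1, whose protein p47phox organises assembly once it is phosphorylated, had 1.21 FPKM in APL#2 (1.05 to 1.40) against 0.737 in APL#1 (0.601 to 0.893). The intervals do not overlap, and the ratio was 1.65 (1.29 to 2.12), from about 184 fragments in APL#2 and 103 in APL#1. Of 4592 genes with a mean FPKM within 2-fold of that of Ncf1, 4.97% had a ratio at least as high.

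Ncf4, whose protein p40phox binds a lipid of the phagosome membrane, had 2.77 FPKM in APL#2 (2.42 to 3.15) against 2.06 in APL#1 (1.75 to 2.41). The intervals just miss each other, and the ratio was 1.35 (1.09 to 1.66), from about 225 fragments in APL#2 and 155 in APL#1. Among 2674 genes of like level, within 2-fold of the mean, 8.79% had a ratio at least as high. The standard errors implied by the authors' statistic were wider than either difference, at 1.02 beside a log2 ratio of 0.72 for Ncf1 and 0.98 beside 0.43 for Ncf4.

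Ncf4 RNA stood 2.28-fold above Ncf1 RNA in APL#2 and 2.79-fold above it in APL#1, as ratios of FPKM.

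Of the Rac genes, Rac1 was lower in APL#2 and Rac2 was nearly level. Rac2, the form made mainly in blood cells and the main partner of the oxidase in mouse neutrophils, had 6.46 FPKM in APL#2 (6.08 to 6.85) against 6.77 in APL#1 (6.37 to 7.20). The intervals overlap, the ratio was 0.953 (0.875 to 1.04), and its direction flips with the scaling of the libraries, as the log2 difference of -0.06 becomes 0.11 relative to the median of all measured genes. Rac1, the form found in nearly all cells, had 2.33 FPKM in APL#2 (2.07 to 2.60) against 3.49 in APL#1 (3.16 to 3.84). These intervals do not overlap, and the ratio was 0.667 (0.574 to 0.776), from about 301 fragments in APL#2 and 417 in APL#1. These numbers rest on the shortest coding transcript; the longest would give 538 in APL#2 and 746 in APL#1.

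Rac1 was lower in APL#2 with either scaling, and pseudocounts and filters cannot change that direction. Its log2 difference was -0.43, or -0.26 relative to the median of all measured genes and -0.27 with upper quartile scaling. For Rac1 the standard error implied by the authors' statistic was wider than the difference, at 0.85 beside a log2 ratio of -0.59. Of 2226 genes within 2-fold of its mean level, 22.0% had a ratio as low or lower, so such a difference was common among genes of its level. Rac2 RNA stood 2.78-fold above Rac1 RNA in APL#2 and 1.94-fold above it in APL#1, and Rac1 made up 26.5% of their sum in APL#2 and 34.0% in APL#1. The genes have similar coding sequences, and the sources used here do not say how reads that match both of them were counted.

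Ordered by level, APL#2 had Cyba, Rac2, Ncf4, Rac1, Ncf1 and Cybb, and the neighbours Ncf4 and Rac1 in that order had overlapping counting intervals. APL#1 had Cyba, Rac2, Rac1, Ncf4, Ncf1 and Cybb, and there no neighbours overlapped. Ncf4 and Rac1 changed places between the libraries, and the other 4 kept theirs.

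The members were then read against all genes. No measured member of 4 was at least 1.5-fold higher in APL#2 on the log2(FPKM + 1) scale, where 5.49% of the 4100 measured genes were, and none was at least 1.5-fold lower, where 10.1% were. At 2-fold the shares of all measured genes were 2.10% higher and 2.44% lower, again with no member. The split of all genes depends on scaling: 225 were at least 1.5-fold higher and 416 lower, but 360 higher and 219 lower relative to the median of all measured genes. The median log2 difference was 0.03 over the 4 measured members and 0.20 over all 6, beside -0.17 over all measured genes. Of the 4 measured members, 3 lay above that all-gene median and Rac1 below it. Ncf1 and Cybb are not among the measured genes, and the added 1 draws a gene as low as Cybb toward 0. The median over all 6 is therefore not a like-for-like comparison with -0.17. Without a pseudocount Rac1 reached 1.5-fold lower, just at the limit, and the unmeasured Ncf1 and Cybb had the ratios of 1.65 and 19.4 given above.

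**Figure D3:**
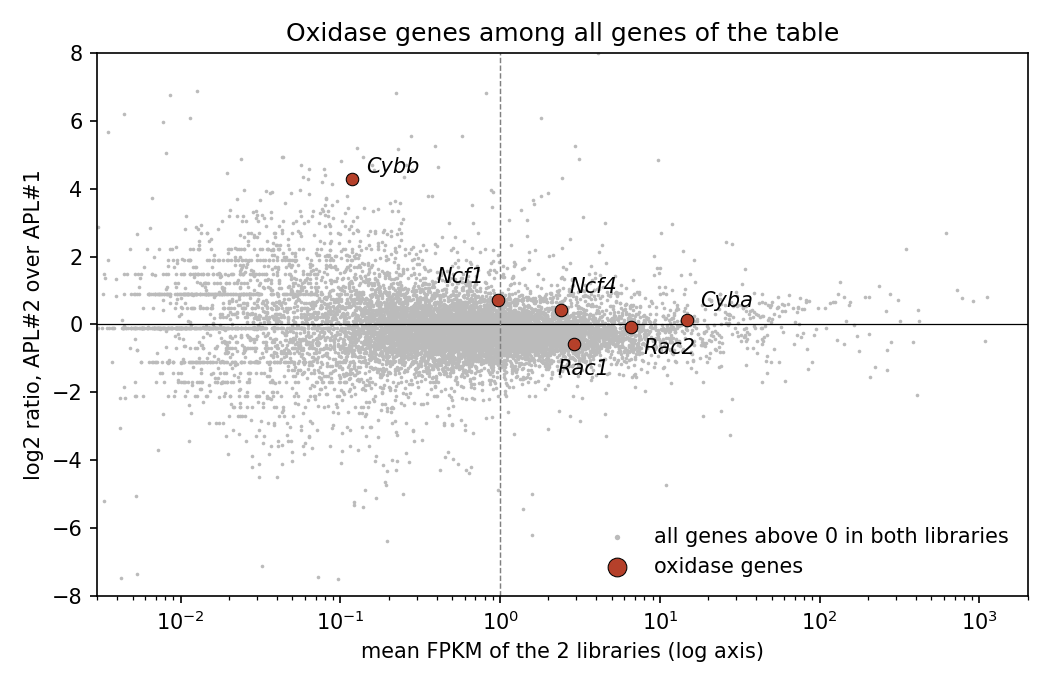
Log2 ratio of FPKM, APL#2 over APL#1, against the mean FPKM of the 2 libraries (log axis) for genes above 0 in both (grey) and the 6 oxidase genes (red); the dashed line is a mean of FPKM 1, and 63 genes lie outside the axes. Cybb stands at a log2 ratio of 4.28 among low genes, where the spread is wide, and the other 5 members reach from -0.59 (Rac1) to 0.72 (Ncf1).

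The members lie on 4 chromosomes. Cyba (mm9 chromosome 8, 124948671 to 124956840), Ncf1 and Rac1 (chromosome 5, 134696130 to 134705495 and 144266349 to 144288861) and Ncf4 and Rac2 (chromosome 15, 78075241 to 78093010 and 78389599 to 78403213) are on chromosomes whose measured genes had median log2 differences of -0.18, -0.19 and -0.17, beside -0.17 over all. Ncf4 and Rac2 are 297 kb apart. The 2 measured genes between them, of 10 listed, are Csf2rb, the common receptor chain of GM-CSF, interleukin-3 and interleukin-5 (2.77 FPKM in APL#2, 3.27 in APL#1), and Mpst (1.11 in APL#2, 1.48 in APL#1). Ift27, on the other side of Ncf4, had 0.698 FPKM in APL#2 against 1.75 in APL#1, and Cyth4, beyond Rac2, had 1.31 FPKM in APL#2 against 0.987 in APL#1. The genes beside Cyba were Zc3h18 (1.49 in APL#2, 1.87 in APL#1) and Rnf166 (2.05 in APL#2, 1.67 in APL#1). Gtf2i beside Ncf1 had 1.52 FPKM in APL#2 against 2.00 in APL#1, and the nearest measured gene on its other side was Sbds (1.55 in APL#2, 1.84 in APL#1), 3.96 Mb away. Beside Rac1, Kdelr2 had 1.34 FPKM in APL#2 against 2.09 in APL#1, and Aimp2 had 1.20 FPKM in APL#2 against 1.14 in APL#1. Ncf1 and Ncf4 were thus higher in APL#2 between measured neighbours that were lower there, but the median measured gene was lower too, at -0.17. The log2 differences were -0.16 for Sbds and -0.25 for Gtf2i beside Ncf1. Beside Ncf4 they were -0.69 for Ift27 and -0.18 for Csf2rb.

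With 2 libraries a pattern is only a pair of levels. The measured gene closest to Cyba by distance over log2(FPKM + 1) was Bola2 (15.3 FPKM in APL#2, 14.3 in APL#1), that closest to Ncf4 was Sfrs18 (2.80 in APL#2, 2.04 in APL#1), and that closest to Ncf1 was Ttc9c (1.27 in APL#2, 0.776 in APL#1). Yy1 (2.36 in APL#2, 3.44 in APL#1) was closest to Rac1 and Ccnd3 (6.59 in APL#2, 6.73 in APL#1) to Rac2. These distances were at most 0.05. For Cybb no such gene is named, since its own level lies below that of all measured genes searched.

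The wider machinery was described with 10 lists of partner genes, 129 genes in all, of which 76 were measured. Of these 76, 4 were at least 1.5-fold higher in APL#2 (5.26%) and 8 lower (10.5%), shares near those of all measured genes. The balance turns with scaling, to 7 higher and 4 lower relative to the all-gene median and 7 higher and 5 lower with upper quartile scaling. By plain ratio of FPKM, 7 of the 76 were higher and 15 lower, beside 313 higher and 871 lower of 4050 genes counted that way. Counts and medians of lists below are on the log2(FPKM + 1) scale. The median log2 difference of the 76 partner genes was -0.18, beside -0.17 over all measured genes.

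Among 9 partners of assembly, none was at least 1.5-fold higher in APL#2 and 3 were lower. The list median was -0.22, or -0.05 relative to the all-gene median. The calcium-binding proteins S100A8 and S100A9 bring arachidonic acid to the oxidase. S100a8 had 105.3 FPKM in APL#2 against 309.0 in APL#1, and S100a9 had 148.1 in APL#2 against 378.8 in APL#1, so both were over 2-fold lower in APL#2. P4hb, a protein disulphide isomerase, had 11.1 FPKM in APL#2 against 20.5 in APL#1. Below the 1.5-fold limit, Hvcn1, the proton channel that balances the charge moved by the oxidase, had 7.88 FPKM in APL#2 against 5.35 in APL#1. Rap1a, a small GTPase found with the cytochrome, had 2.15 FPKM in APL#2 against 2.84 in APL#1, Lrrc33, known now as Nrros and a brake on the cytochrome in mouse phagocytes, had 5.75 FPKM in APL#2 against 6.31 in APL#1, and BC017643 had 1.25 in APL#2 against 1.61 in APL#1. The listed span of BC017643 is shared with 2 other genes.

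Other NADPH oxidases were listed at or near 0. Of 9 genes of the Nox and Duox enzymes and their partners, 7 were listed at 0 in both libraries, none was measured, and the highest was the organiser gene Noxo1, with 0.167 FPKM in APL#2 against 0.155 in APL#1. Nox1 was at 0.0109 FPKM in APL#2 and listed at 0 in APL#1. Cybb was thus the highest of the catalytic Nox and Duox genes listed in either library, at 0.224 FPKM in APL#2 against 0.0115 in APL#1.

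Genes whose proteins switch Rac on and off came next. None of the 5 measured exchange factor genes, which load Rac with GTP, passed 1.5-fold, with a list median of -0.05, or 0.12 relative to the all-gene median. The highest were Elmo1 (4.73 FPKM in APL#2, 4.71 in APL#1) and Dock2 (4.31 in APL#2, 4.49 in APL#1), whose proteins work as a pair in blood cells. Of 7 measured inhibitor and GTPase-activating genes, Racgap1 was at least 1.5-fold lower (0.955 FPKM in APL#2, 2.17 in APL#1), and its protein acts in cell division. Arhgdib, which keeps Rac GTPases in the cytosol of blood cells, was level at 74.9 FPKM in APL#2 against 74.0 in APL#1, and Arhgap15 had 27.2 FPKM in APL#2 against 34.6 in APL#1. None of the 6 measured WAVE complex and effector genes, through which Rac drives actin, passed 1.5-fold; Brk1, listed as 6720456B07Rik, had 6.91 FPKM in APL#2 against 6.12 in APL#1, and Iqgap1 had 2.06 in APL#2 against 2.67 in APL#1.

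**Figure D4:**
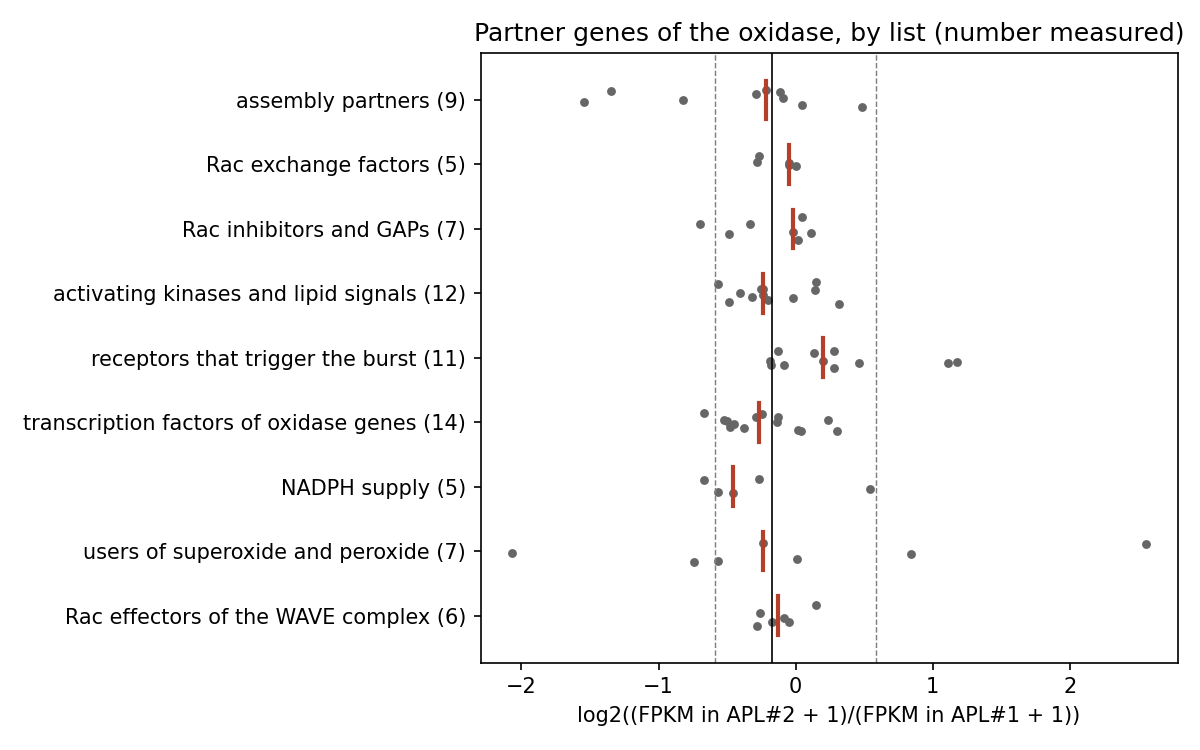
Log2((FPKM in APL#2 + 1)/(FPKM in APL#1 + 1)) of each measured gene (points) in 9 lists of partner genes, with the number measured in brackets, list medians (red bars), the median of all measured genes (black line, -0.17) and 1.5-fold limits (dashed). Most points lie inside the limits, and the Rac exchange factors lie close to the all-gene median; the list of other NADPH oxidases had no measured gene.

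Signals that lead to the burst differed at a few receptors. Of 11 measured receptor genes, 2 were at least 1.5-fold higher in APL#2 and none lower, with a list median of 0.20. Csf2ra, the specific chain of the GM-CSF receptor, which primes the oxidase, had 7.62 FPKM in APL#2 against 2.82 in APL#1, a ratio of 2.70, and Clec7a, the receptor Dectin-1 for fungal glucans, had 3.88 FPKM in APL#2 against 1.27 in APL#1, a ratio of 3.07. The list's highest genes were the signal adaptors Tyrobp (32.1 FPKM in APL#2, 35.2 in APL#1) and Fcer1g (20.6 in APL#2, 23.6 in APL#1). Toll-like receptor 4 and formyl peptide receptor 1, the triggers best known from mature phagocytes, were listed at 0 in both libraries (Tlr4 and Fpr1). Of 12 measured kinase and lipid signal genes, none passed 1.5-fold on the log2(FPKM + 1) scale, although by plain ratio Plcb2 was 1.71-fold lower, Akt1 1.58-fold lower and Prkcb 1.51-fold higher in APL#2. Mapk14 (p38), which phosphorylates p47phox, had 5.88 FPKM in APL#2 against 6.89 in APL#1, and Mapk3 had 3.17 in APL#2 against 4.53 in APL#1. Prkcd, the protein kinase C form that acts on p47phox in neutrophils, had 2.36 FPKM in APL#2 against 2.96 in APL#1.

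Transcription factors known to act on oxidase genes were not higher in APL#2 as a group. Of 14 measured, none was at least 1.5-fold higher and Cebpa was lower (2.61 FPKM in APL#2, 4.74 in APL#1). The list median was -0.27, or -0.09 relative to the all-gene median and -0.13 with upper quartile scaling. Highest by the mean of both libraries were Cux1, a repressor of the human CYBB promoter (7.53 FPKM in APL#2, 10.6 in APL#1), and Cebpe, a factor of late granulocyte maturation (7.40 in APL#2, 8.20 in APL#1). Sfpi1, which encodes PU.1, had 5.74 FPKM in APL#2 against 8.55 in APL#1. Irf8, which joins PU.1 at ETS-IRF elements like that marked in the Cybb stretch, was at 0.0123 FPKM in APL#2 against 0.0267 in APL#1, and Irf2 had 3.06 in APL#2 against 2.95 in APL#1. These 3 genes were named after their values were seen, as were Hvcn1, Rap1a, Lrrc33, Prkcd, Tlr4 and Fpr1.

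The NADPH supply list, named for the electron donor of the oxidase, had a median of -0.46 over 5 measured genes. That was -0.29 relative to the all-gene median and -0.26 with upper quartile scaling. The list also holds pentose phosphate pathway genes whose enzymes do not themselves make NADPH (Pgls, Taldo1 and Tkt), so its median is not one of NADPH-making enzymes. Pgls of the pentose phosphate pathway was at least 1.5-fold lower, with 4.12 FPKM in APL#2 against 7.13 in APL#1. The highest were Taldo1 (10.9 FPKM in APL#2, 15.3 in APL#1) and Tkt (10.2 in APL#2, 15.6 in APL#1). The measured genes whose enzymes make NADPH went opposite ways. G6pdx, the entry enzyme of the pathway, had 2.44 FPKM in APL#2 against 1.37 in APL#1, a log2 difference of 0.54. Pgd had 5.90 FPKM in APL#2 against 7.29 in APL#1, a log2 difference of -0.26. The values of G6pdx and Pgd were known when they were named. Among 7 measured genes whose proteins use or remove superoxide and peroxide, 2 were at least 1.5-fold higher and 2 lower. Mpo, which turns peroxide into hypochlorous acid, had 157.3 FPKM in APL#2 against 661.8 in APL#1, and Prdx2 had 1.23 FPKM in APL#2 against 2.72 in APL#1. Sod3 (5.77 FPKM in APL#2, 0.152 in APL#1) and Prdx5 (30.9 in APL#2, 16.8 in APL#1) were higher in APL#2. Gpx1, a glutathione peroxidase, was level at 24.1 FPKM in APL#2 against 23.9 in APL#1.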

How the data were processed

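The authors deposited 1 gene table with 1 value column per library. Per the submitters' processing notes, TopHat2 2.0.10, Cufflinks, Cuffdiff and mm9 were used, with no role or order given; their annotation, strand, filters and scaling were not given in the sources used here. Value columns were read as FPKM from the layout of the deposited table, whose header names no unit. The deposited table also holds the authors' test statistic, a score per gene, and their p-value and q-value, per the file headers. The log2 column was not used. The table starts its spans at 0, so 1 was added to each start.

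Computed here with Python 3.11.15, numpy 2.4.6, pandas 2.3.3 and scipy 1.17.1 were ratios, log2 differences with a pseudocount of 1, counts past 1.5-fold and 2-fold, and medians. The scripts were tested on simulated data. Among 3168 low genes, under a mean of 0.2 FPKM, 305 shared, within 0.1%, 1 ratio of APL#1 over APL#2, 1.08, more than any other; 69 of these with 1 transcript gave the worth of 1 fragment. The shortest coding transcript linked to RefSeq gave each gene's length, with the longest as an alternative. The members and lists were chosen with earlier results of these data known. Named are all members, BC017643, and, from each list, measured genes past 1.5-fold and the 2 highest by mean FPKM. Alternatives were another pseudocount, scaling, filter and set of genes. Results that need an item withheld for evaluation are not reported here.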

Additional observations from a re-analysis of the deposited data

How the results depend on the processing

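The count of measured members at least 2-fold higher or lower in APL#2 was 0 under all 7 alternatives (2 other pseudocounts, 2 scalings, 2 filters and small RNA genes left out). Cybb could not enter this count: the filter left it out, or with no filter the pseudocount of 1 held it at 0.28. Members counted were 2 with a minimum of 5 FPKM, 6 with no filter and 4 otherwise. At 1.5-fold the count was also 0, except that 1 member, Rac1, counted as lower without a pseudocount. The median difference over members was 0.20 with no filter, 0.20 relative to the all-gene median and 0.23 with upper quartile scaling, against 0.03. Rac2 changed sign with either scaling, to 0.13 with upper quartiles, and no other member did. The log2 difference of Cybb was 1.54 with a pseudocount of 0.1 and 4.28 with none, against 0.28. Partner genes at least 1.5-fold lower numbered 15 with a pseudocount of 0.1 or none, 5 with upper quartile scaling, 4 relative to the all-gene median and 5 with a minimum of 5 FPKM, against 8. Those higher numbered 7 without a pseudocount or with either scaling and 2 with a minimum of 5 FPKM, against 4. Counts over all genes moved the same way. Those at least 1.5-fold lower numbered 825 with a pseudocount of 0.1, 871 with none and 235 with upper quartile scaling, against 416. They numbered 219 relative to the all-gene median, and 157 of the 793 genes counted with a minimum of 5 FPKM. Those higher numbered 313 without a pseudocount, 346 with upper quartiles, 360 relative to the median and 110 under the stricter filter, against 225. The cause of these moves was not tested. List medians of the Rac exchange factors, Rac inhibitors and WAVE complex turned positive with either scaling. With a minimum of 5 FPKM they were -0.47 for assembly partners, -0.33 for Rac inhibitors and 0.15 for the WAVE complex. Chosen after seeing the data, the next smaller pair of Cybb fragments with the same ratio, 42 in APL#2 and 2 in APL#1, gave a counting interval of 5.05 to 165.6, and the longest coding transcript in place of the shortest raised the fragments of Rac1 and Cyba. Leaving out a library was not possible with 1 per leukaemia.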
